A study of Mus musculus with 48 samples.

Results

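The genes described are the receptors, co-receptors, signal transducer and GLI factors of the hedgehog pathway: Ptch1, Hhip, Smo, Boc, Cdon, Gas1, Gli1, Gli2 and Gli3. They were taken by symbol, 9 of the 24421 gene symbols that each of the 6 deposited expression tables lists, and the 9 members were found in all 6 tables. The study measured gene expression by bulk RNA-seq in mouse astrocytes, the star-shaped glial cells of the brain, from cortex, hippocampus and olfactory bulb. One set followed postnatal days 1, 7 and 14 (P1, P7 and P14), with 3 libraries for each region and age except cortex P14, which had 4. These libraries carry no genotype or treatment label. The other set compared animals labelled Gabbr1 control and Gabbr1 cKO at P28, with 4 control and 4 cKO libraries in cortex, 2 control and 4 cKO in hippocampus, and 3 of each in olfactory bulb. Gabbr1 codes for one of the GABA-B receptor's subunits, and cKO stands for conditional knockout. Tamoxifen is stated for controls and cKO alike in hippocampus and olfactory bulb and for 3 of the 8 cortex libraries. The Cre driver, the alleles, the strain and whether animals were pooled are not given in the sources used here. The series' design text names only cortex for the P28 comparison, so the purpose of the hippocampus and olfactory bulb comparison is taken from the genotype labels alone.

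In vertebrates, a hedgehog ligand such as Sonic hedgehog (Shh) binds Patched-1 (Ptch1), which otherwise holds the membrane protein Smoothened (Smo) inactive. Boc, Cdon and Gas1 bind the ligand together with Ptch1 as co-receptors, and Hhip binds ligand without passing on the signal. Active Smo acts at the primary cilium on the zinc finger transcription factors Gli2 and Gli3. Gli2 serves mainly as an activator and Gli3 is often cut to a repressor form, while Gli1 is an activator whose own transcription is a common readout of the pathway. Ptch1, Hhip and Gli1 are also known targets of the pathway, and Ptch1 and Hhip then limit it. In the adult forebrain, Shh made by neurons is known to act on astrocytes.

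Values are normalized read counts: whole reads divided by 1 factor per library. Libraries held between 1773226 and 15008466 reads on genes. In hippocampus they held 5098757 to 8986015 reads at P1 and 2539583 to 4248087 at P14. In olfactory bulb they held 5473837 to 9062118 reads at P1 and 1773226 to 2669394 at P14. Replicates in these regions also correlated less at P14 (r of 0.84 to 0.86) than at P1 (0.96 to 0.98). Low counts at P14 there come from shallower libraries. The tables were scaled separately, so ages were tested within a region, genotypes within a region at P28, and no level was tested between tables. The labels do not say that replicate libraries came from different animals, so p-values measure the spread between these libraries, which may be technical. A pair of libraries stood apart before any comparison: hippocampus P28 cKO replicate 2 and olfactory bulb P28 control replicate 2 held 0.594% and 0.476% of their reads on Rn45s, the ribosomal RNA precursor, whereas the other libraries held 13.7% to 38.0%.

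Stretches of DNA before the RefSeq-listed starts of Ptch1, Gli2 and Gli3 are shown. These genes rose with age in at least 2 regions, with Pearson r of 0.66 to 0.81 between them over the developmental libraries. Smo, which is not shown, also rose in 2 regions, with r of 0.75 to Ptch1, 0.71 to Gli2 and 0.54 to Gli3. Whether CpG content goes with the age changes was not tested. The stretches come from the RefSeq promoter table on build GRCm38.p6, which held 7 of the 9 members and had no entry for Gli1 or Boc. Each stretch is the 250 bases before the listed start, 5′ to 3′ on the gene's strand, and capitals mark CG dinucleotides (CpG). The stretches lie at chr13:63565736-63565985 on the minus strand for Ptch1, chr1:119053620-119053869 on the minus strand for Gli2 and chr13:15463473-15463722 on the plus strand for Gli3. The Gli2 stretch lies just outside the gene's GENCODE span, whereas the Ptch1 and Gli3 stretches lie inside theirs, before a listed start that is not the outermost one. In that annotation none of the 3 stretches overlaps an exon of its gene.
Ptch1: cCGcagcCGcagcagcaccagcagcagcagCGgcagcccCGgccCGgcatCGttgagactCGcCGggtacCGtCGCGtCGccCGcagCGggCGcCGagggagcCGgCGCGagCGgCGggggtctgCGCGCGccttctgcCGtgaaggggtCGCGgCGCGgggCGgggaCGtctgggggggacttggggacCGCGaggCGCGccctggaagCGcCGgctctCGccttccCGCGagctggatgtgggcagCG
Gli2: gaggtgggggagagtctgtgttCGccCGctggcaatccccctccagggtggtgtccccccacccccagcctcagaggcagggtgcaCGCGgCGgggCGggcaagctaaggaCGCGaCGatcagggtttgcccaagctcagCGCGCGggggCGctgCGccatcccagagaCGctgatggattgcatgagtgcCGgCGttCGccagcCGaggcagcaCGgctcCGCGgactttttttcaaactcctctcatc
Gli3: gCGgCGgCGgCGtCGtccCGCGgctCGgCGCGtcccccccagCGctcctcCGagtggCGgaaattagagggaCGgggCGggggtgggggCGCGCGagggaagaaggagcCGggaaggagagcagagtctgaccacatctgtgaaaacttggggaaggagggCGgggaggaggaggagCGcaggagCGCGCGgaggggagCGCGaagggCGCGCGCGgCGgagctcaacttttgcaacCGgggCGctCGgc
The Ptch1 stretch holds 41 CpG, the Gli3 stretch 34 and the Gli2 stretch 22, against a median of 6 and quartiles of 2 and 16 over the 32851 promoters in the table. The windows of Hhip, Smo and Gas1 held 28, 15 and 10. The Cdon window also lies inside its gene and, unlike these, overlaps an exon, so its CpG count is not compared. The GLI binding sequence GACCACCCA was searched on both strands from 250 bases before to 50 after each start. It was present in 83 of the 32851 promoters, or 0.253%, and in none of the 7 member windows. With up to 1 mismatch it was present in 2214 promoters, or 6.74%, and again in none of the 7. These letters are thus not in these windows, and other parts of the genes were not searched.

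Between P1 and P14 the members did not all move one way. Ptch1 and Gli2 rose in all 3 regions, Smo rose in hippocampus and olfactory bulb, Gli3 rose in cortex and hippocampus, and Cdon fell in all 3 regions by the largest amounts of any tested member. In cortex, 4 of the 8 tested members rose and 1 fell, where 24.0% of all tested genes rose and 40.3% fell. In hippocampus, 4 of 9 rose and 3 fell, where 21.0% of all genes rose and 28.5% fell. In olfactory bulb, 3 of 8 rose and 1 fell, where 24.8% rose and 31.4% fell. Whether these shares differ from those of all genes was not tested. The tested members had median log2 changes of 0.44 (cortex), 0.39 (hippocampus) and -0.10 (olfactory bulb), beside -0.27, -0.29 and -0.24 for all tested genes. Changes were called with limma on log2(value + 1) at a Benjamini-Hochberg adjusted p under 0.05 over all genes with a table mean of at least 10. Gli1 lay below that mean in cortex and olfactory bulb development and was not tested there.

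**Figure D1:**
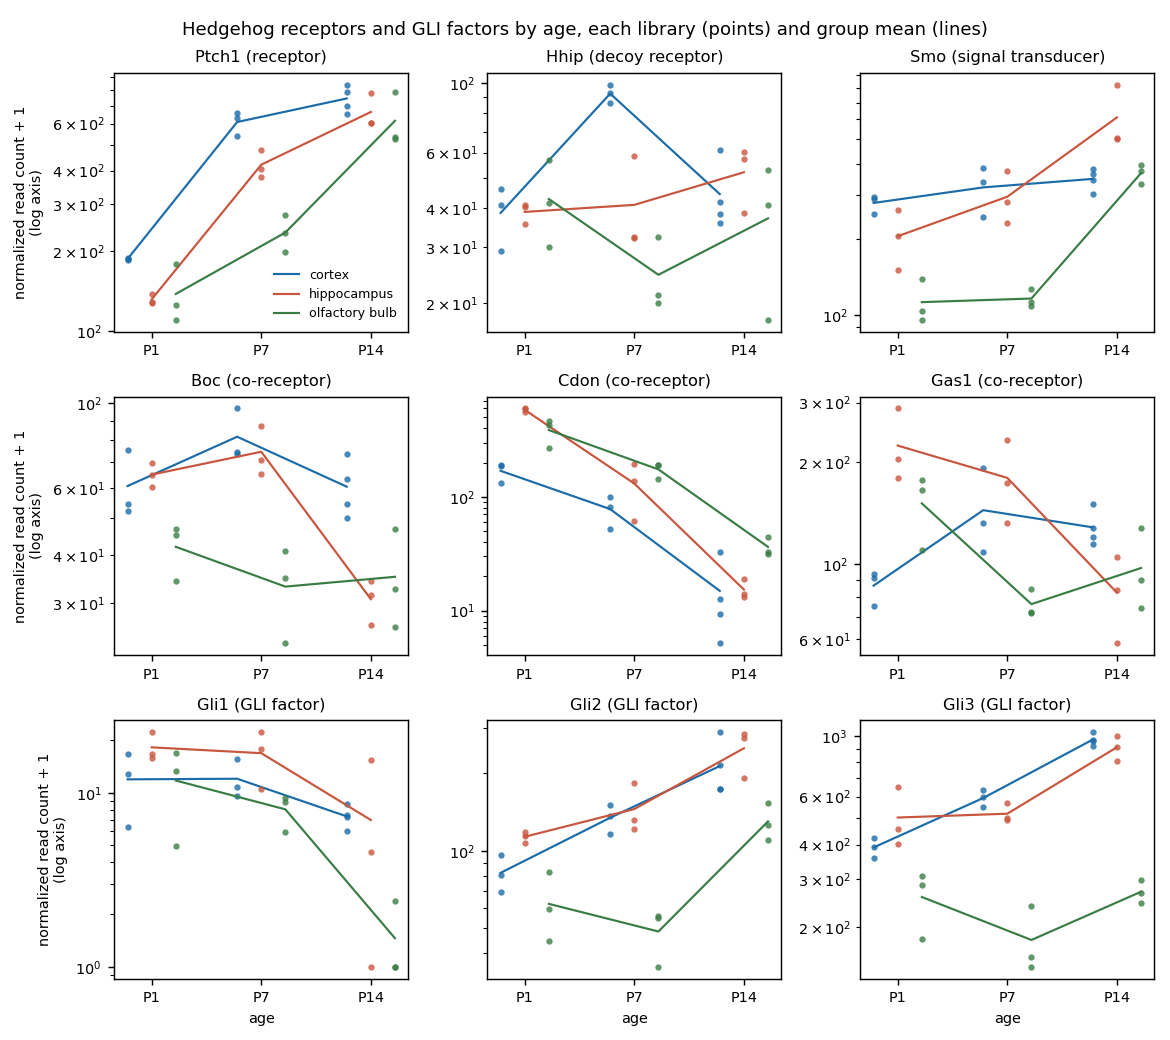
Normalized read count plus 1 (log axis) of each member at P1, P7 and P14 in cortex (blue), hippocampus (red) and olfactory bulb (green); points are libraries and lines join group means. Ptch1 climbs and Cdon drops in every region, while the 3 cortex P7 libraries hold the highest Hhip values (85.1 to 97.4), and Gas1 lies higher at P14 than at P1 in cortex and lower in hippocampus.

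The members were also counted week by week. From P1 to P7, 5 of 8 tested members rose in cortex and 0 fell, where 15.6% of all tested genes rose and 18.1% fell. In hippocampus 1 of 9 rose and 1 fell, where 11.2% of all genes rose and 6.92% fell. In olfactory bulb 0 of 8 rose and 2 fell, where 7.59% rose and 2.98% fell. From P7 to P14, 3 members rose and 2 fell in cortex, where 18.6% of all genes rose and 31.3% fell. In hippocampus 4 rose and 3 fell, where 12.5% rose and 17.7% fell, and in olfactory bulb 3 rose and 1 fell, where 20.4% rose and 26.6% fell. The difference in timing between regions was not tested, because the tables were scaled separately. The count for olfactory bulb from P1 to P7 rested on single libraries: it was 0 without P1 replicate 2, P7 replicate 1 or P7 replicate 2. Without P1 replicate 3 it was 1, a rise of Ptch1 (0.98, limma adjusted p = 0.0406), and the falls of Cdon and Gas1 were lost. The cortex P7 to P14 count fell to 3 without P7 replicate 3, and the hippocampus P7 to P14 count fell to 4 without P7 replicate 2.

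**Figure D2:**
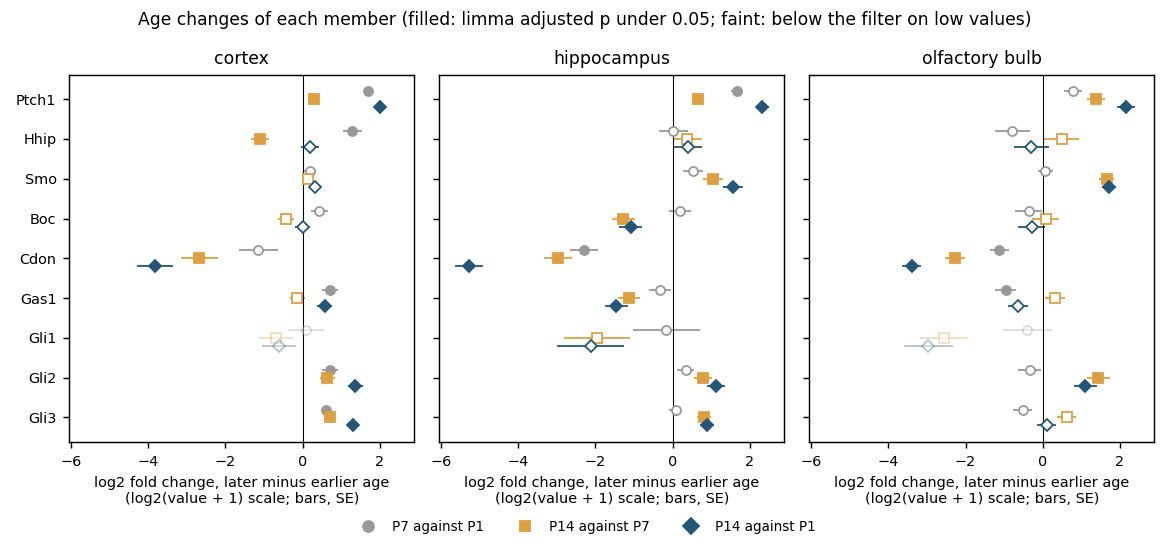
Log2 fold change (log2(value + 1) scale, later minus earlier age) of each member for P7 against P1 (grey circles), P14 against P7 (orange squares) and P14 against P1 (blue diamonds), with SE bars. Filled symbols passed limma's adjusted p threshold of 0.05, and faint symbols (Gli1 in cortex and olfactory bulb) lay below the filter on low values. The Cdon diamonds lie at -3.82, -5.27 and -3.39.

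Ptch1, the ligand receptor, is a gene of chromosome 13 (63508328 to 63573598, minus strand, GRCm38). In cortex its normalized counts were 184, 187 and 186 at P1, then 627, 658 and 536 at P7, and 653, 836, 699 and 788 at P14. In hippocampus they were 127, 137 and 128 at P1, then 477, 405 and 378 at P7, and 602, 781 and 604 at P14. In olfactory bulb they were 109, 125 and 177 at P1, then 232, 272 and 197 at P7, and 523, 784 and 533 at P14. Every P14 library lay above every P1 library in each region. The log2 change from P1 to P14 was 1.99 ± 0.11 (SE) in cortex, with a limma adjusted p of 3.66e-09. It was 2.32 ± 0.16 in hippocampus (limma adjusted p = 4.21e-07) and 2.16 ± 0.23 in olfactory bulb (limma adjusted p = 1.63e-05). Most of the rise in cortex and hippocampus came between P1 and P7, with log2 changes of 1.70 and 1.67 for that week. In olfactory bulb the P1 to P7 change of 0.78 did not pass (limma adjusted p = 0.0524), and the rise of 1.38 came between P7 and P14. That olfactory bulb call was gained without P1 replicate 3 (limma adjusted p = 0.0406) or P7 replicate 3 (0.0466), and with all libraries under DESeq2 (0.0149), edgeR (0.0432), quantile normalization, a pseudocount of 8, a minimum mean of 100 and only these 2 ages fitted. The small cortex rise after P7, 0.29, was lost without P7 replicate 1, P7 replicate 3, P14 replicate 2 or P14 replicate 4, with limma adjusted p of 0.0612, 0.167, 0.0987 and 0.0865, and under quantile normalization (0.19, limma adjusted p = 0.162).

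Hhip, the decoy receptor that binds ligand without signalling, showed no change between P1 and P14 that passed the test in any region. It lies on chromosome 8 (79965851 to 80058006, minus strand). In cortex its values were 39.8, 44.8 and 28.2 at P1, then 91.7, 85.1 and 97.4 at P7, and 40.9, 60.4, 37.2 and 34.8 at P14. All P7 libraries stood above the other cortex libraries. From P1 to P7 the cortex rise was 1.28 ± 0.25 in log2 units (limma adjusted p = 0.00138), and the fall from P7 to P14 was -1.09 ± 0.23 (limma adjusted p = 0.0016). In hippocampus Hhip ranged from 31.2 to 59.1 over the 9 libraries and in olfactory bulb from 16.7 to 55.7, with all ages overlapping. From P1 to P14 the cortex change was 0.19, with a 95% interval of -0.31 to 0.69, and under quantile normalization it was 0.63 (limma adjusted p = 0.0266). The hippocampus change was 0.39 (-0.41 to 1.201) and the olfactory bulb change -0.30 (-1.29 to 0.70).

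Smo, the transmembrane protein that carries the signal from the receptor, showed no called change in cortex and was high at P14 in the other regions. It lies on chromosome 6 (29735503 to 29761365, plus strand). In cortex the values were 295, 251 and 289 at P1, then 382, 337 and 244 at P7, and 362, 382, 303 and 343 at P14. From P1 to P14 the cortex log2 change was 0.32 ± 0.14 and did not pass (limma adjusted p = 0.0697), although each P14 library lay above each P1 library. Under TMM scaling that value was 0.60 (limma adjusted p = 0.00281), under quantile normalization 0.40 (0.0321), with only these 2 ages fitted 0.32 (0.0285), and without P14 replicate 3 it was 0.38 (0.0449). In hippocampus Smo was 205, 261 and 149.9 at P1, then 281, 231 and 373 at P7, and 821, 507 and 502 at P14. In olfactory bulb it was 103, 138 and 94.9 at P1, then 127, 108 and 112 at P7, and 332, 393 and 374 at P14. Both regions had P14 libraries above all earlier ones. Smo rose from P1 to P14 by 1.56 ± 0.26 in hippocampus (limma adjusted p = 0.000414) and by 1.72 ± 0.19 in olfactory bulb (limma adjusted p = 2.11e-05). In both regions the change passed between P7 and P14 (1.03 and 1.65) and not between P1 and P7 (0.53 and 0.06). The hippocampus P7 to P14 rise was lost without P7 replicate 2, with a log2 change of 0.87 and a limma adjusted p of 0.0591.

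Cdon, an immunoglobulin superfamily co-receptor on the cell surface, showed the steepest change. It lies on chromosome 9 (35421128 to 35507652, plus strand). In hippocampus its values were 595, 551 and 598 at P1, then 194, 136 and 60.6 at P7, and 12.9, 12.1 and 17.9 at P14. In cortex they were 189, 131 and 186 at P1, then 99.3, 80.4 and 51.7 at P7, and 8.32, 31.4, 11.7 and 4.15 at P14. In olfactory bulb they were 271, 424 and 464 at P1, then 142.6, 188 and 189.8 at P7, and 43.7, 30.3 and 31.9 at P14. Ages did not overlap in any region, and at P14 a library held between 8 and 50 Cdon reads. The Cdon change between P1 and P14 was -5.27 ± 0.37 (log2) in hippocampus (limma adjusted p = 4.51e-07), where the ratio of group means was 0.0246. It fell by 3.82 ± 0.47 in cortex (limma adjusted p = 8.73e-06) and by 3.39 ± 0.25 in olfactory bulb (limma adjusted p = 1.27e-06). From P1 to P7 the fall passed in hippocampus (-2.30) and olfactory bulb (-1.12), and the cortex value of -1.15 did not (limma adjusted p = 0.094). The cortex value passed with a pseudocount of 8 (limma adjusted p = 0.0274), with DESeq2 (0.0338) and with only these 2 ages fitted (0.00856). The olfactory bulb P7 call was lost without any of 4 libraries, P1 replicates 2 and 3 and P7 replicates 1 and 2, with limma adjusted p of 0.0829, 0.0925, 0.0812 and 0.0551.

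Boc, the paralog of Cdon, on chromosome 16 (44485049 to 44558897, minus strand), was called in hippocampus and not in the other regions between P1 and P14. In hippocampus Boc was 59.5, 68.6 and 63.9 at P1, then 70.05, 86.3 and 64.3 at P7, and 33.3, 25.4 and 30.5 at P14. All P14 libraries lay below the others there, and Boc fell from P1 to P14 by 1.09 ± 0.29 (limma adjusted p = 0.00947). It also fell from P7 to P14, by 1.28 ± 0.29 (limma adjusted p = 0.00742), and without P7 replicate 2 that change was -1.16 with a limma adjusted p of 0.0534. In cortex Boc ranged from 49.2 to 95.8 and in olfactory bulb from 22.5 to 45.8, with P1 and P14 overlapping. The log2 changes from P1 to P14 were -0.00 in cortex and -0.29 in olfactory bulb, with 95% intervals of -0.44 to 0.44 and -1.06 to 0.48. The cortex value was 0.28 under TMM scaling and 0.35 under quantile normalization.

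Gas1, a co-receptor held to the membrane by a lipid anchor, moved in opposite directions in cortex and hippocampus. It lies on chromosome 13 (60174405 to 60177365, minus strand). In cortex its values were 92.3, 74.05 and 89.8 at P1, then 132, 191 and 107 at P7, and 119.6, 149.7, 127 and 114 at P14. In hippocampus they were 203, 287 and 178 at P1, then 173, 232 and 132 at P7, and 82.8, 57.3 and 104 at P14. In olfactory bulb they were 109, 176 and 165 at P1, then 71.3, 83.6 and 70.6 at P7, and 127, 73.1 and 88.9 at P14. In cortex the P1 libraries lay below all later ones, whereas the hippocampus P14 libraries lay below all earlier ones. Gas1 rose from P1 to P14 in cortex by 0.57 ± 0.19 (limma adjusted p = 0.0162) and fell in hippocampus by 1.45 ± 0.29 (limma adjusted p = 0.00147). The olfactory bulb change of -0.64 ± 0.26 did not pass (limma adjusted p = 0.058), and it passed with all libraries under quantile normalization (-0.69, limma adjusted p = 0.0433) and DESeq2 (-0.65, adjusted p = 0.0376), and without P1 replicate 1 (-0.85, limma adjusted p = 0.0312) or P14 replicate 1 (-0.86, limma adjusted p = 0.0134). The cortex rise was lost without P1 replicate 2 (0.47, limma adjusted p = 0.0739). From P1 to P7 Gas1 rose in cortex by 0.71 and fell in olfactory bulb by 0.96 (limma adjusted p = 0.0153 and 0.041). The cortex P7 call was lost without P1 replicate 2 or P7 replicate 2 (limma adjusted p = 0.0635 and 0.0824). The olfactory bulb P7 call was lost without P1 replicate 2, P1 replicate 3, P7 replicate 1, P7 replicate 2 or P7 replicate 3, with limma adjusted p from 0.0879 to 0.177. The hippocampus fall from P7 to P14, -1.13, was lost without P7 replicate 2 (-0.92, limma adjusted p = 0.0717). Gas1 overlaps Gm48488, which runs on the opposite strand. Whether the authors counted by strand is not given in the sources used here, so reads from the overlap cannot be told apart.

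Gli3 and Gli2, the factors that receive the signal from Smo, were present at every age. Gli3 lies on chromosome 13 (15463235 to 15730026, plus strand). Gli3 in cortex was 355, 421 and 393 at P1, then 549.9, 631 and 595 at P7, and 1034, 969, 915 and 960.0 at P14. In hippocampus it was 456, 649 and 401 at P1, then 499, 566 and 490.1 at P7, and 1003, 809 and 914 at P14. Both regions had P14 libraries above all P1 and P7 libraries. Gli3 rose from P1 to P14 by 1.32 ± 0.09 in cortex (limma adjusted p = 3.52e-08) and by 0.88 ± 0.18 in hippocampus (limma adjusted p = 0.00149). In olfactory bulb Gli3 was 179.6, 305 and 284 at P1 and 264, 296 and 243 at P14, and the change of 0.10 ± 0.25 had a 95% interval of -0.45 to 0.64. The olfactory bulb P1 values overlapped those of both later ages. P7 had the lowest mean, with values of 154.2, 238 and 141.8, and every P14 library lay above every P7 library. The P7 to P14 change there, 0.62, did not pass in the main fit. It passed under TMM scaling (0.69, limma adjusted p = 0.0363), with a minimum mean of 100 (0.62, limma adjusted p = 0.0450) and without P7 replicate 2 (0.85, limma adjusted p = 0.0204).

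Gli2 lies on chromosome 1 (118834132 to 119053619, minus strand). Gli2 in cortex was 67.9, 95.7 and 79.8 at P1, then 149.4, 136 and 115 at P7, and 216, 172, 174 and 289 at P14. In hippocampus it was 107, 117 and 114 at P1, then 130.4, 183 and 120.2 at P7, and 191, 283 and 274 at P14. In olfactory bulb it was 43.7, 81.5 and 58.5 at P1, then 54.7, 53.6 and 34.4 at P7, and 109, 125 and 152.7 at P14. P14 lay above P1 in every library of each region. From P1 to P14 Gli2 rose in cortex by 1.36 ± 0.19 (limma adjusted p = 2.93e-05). In hippocampus its rise was 1.12 ± 0.23 (limma adjusted p = 0.00155), and the olfactory bulb rise was 1.10 ± 0.30 (limma adjusted p = 0.00879). Single weeks were less firm: the cortex rise from P1 to P7 (0.72) was lost without P1 replicate 1 or P7 replicate 1 (limma adjusted p = 0.0614 and 0.0613), and the cortex rise from P7 to P14 (0.64) without P7 replicate 3 (0.0603). The hippocampus rise from P7 to P14 (0.79) was lost without P7 replicate 1, P7 replicate 3 or P14 replicate 3, with limma adjusted p of 0.0837, 0.0802 and 0.0501.

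Gli1, the activator whose transcription is often read as pathway output, was scarce. It lies on chromosome 10 (127329882 to 127341974, minus strand). Recovered reads of Gli1 in cortex were 19, 62 and 46 at P1, 17, 19 and 19 at P7, and 17, 8, 24 and 12 at P14. In hippocampus they were 60, 35 and 24 at P1, 28, 34 and 10 at P7, and 0, 13 and 2 at P14. In olfactory bulb they were 11, 28 and 29 at P1, 8, 11 and 14 at P7, and 0, 1 and 0 at P14. As normalized counts, hippocampus held 21.4, 15.6 and 14.8 at P1 against 0, 14.3 and 3.58 at P14. That log2 change was -2.13 ± 0.86 with a limma adjusted p of 0.0584, and without P14 replicate 2, the library with 13 reads, it was -3.07 with a limma adjusted p of 0.00388. Under quantile normalization it was -0.68 (limma adjusted p = 0.443), without P14 replicate 1 it was -1.10 (0.156), and neither edgeR nor DESeq2 called it. From P7 to P14 the hippocampus change was -1.96 (limma adjusted p = 0.105), and -0.11 under quantile normalization. In olfactory bulb the pooled rate at P1 was 19.3 times that at P14, with a 95% exact interval of 3.35 to 773 that covers counting error only and rests on 1 read at P14. Fitted without the filter on low values, the olfactory bulb change was -2.96 with a limma adjusted p of 0.00316, and the cortex change was -0.61 with a limma adjusted p of 0.28. Gli1 shares part of its span with Arhgap9 on the other strand, so its few reads cannot be assigned to a strand here.

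**Figure D3:**
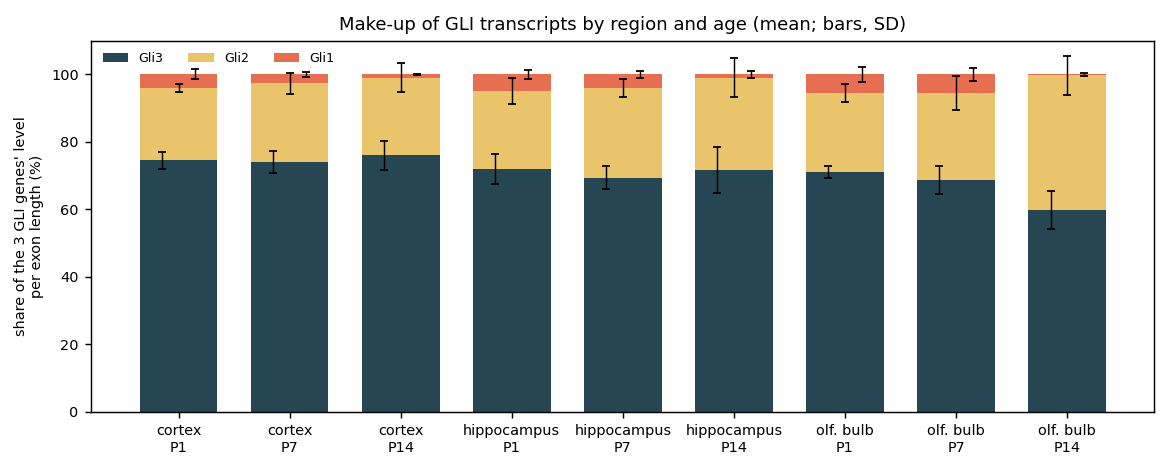
Share (%) of Gli3, Gli2 and Gli1 in the summed level of the 3 genes per exon length, by region and age; bars are means and whiskers the SD over 3 libraries (4 for cortex P14). Gli3 makes up the largest share in every group, Gli1 shrinks to a thin cap at P14, and Gli2 takes 40.1% in olfactory bulb at P14. P28 is not drawn.

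Per exon length, Gli3 held most of the GLI transcript level in every developmental group. Its share was 74.6% ± 2.6 (SD, n = 3) in cortex at P1 and 76.02% ± 4.3 (SD, n = 4) at P14. In hippocampus it was 71.9% ± 4.6 at P1 and 71.6% ± 6.8 at P14 (SD, n = 3). In olfactory bulb the Gli3 share was 70.99% ± 1.8 at P1 and 59.7% ± 5.6 at P14 (SD, n = 3), and the Gli2 share was 23.6% ± 2.7 and 40.1% ± 5.8. There the lowest Gli2 share at P14, 36.6%, lay above the highest at P1, 25.7%. For Gli1 the P1 shares were 3.89% ± 1.48 (cortex), 4.91% ± 1.40 (hippocampus) and 5.38% ± 2.35 (olfactory bulb). At P14 it was 0.954% ± 0.197, 0.920% ± 1.167 and 0.186% ± 0.322. These shares were not tested.

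On the same per-length scale (normalized count per kilobase of exon), the order of the 9 members changed with age. In cortex at P1 Smo led with 49.5, followed by Gli3 with 40.6, Gas1 with 28.8 and Cdon with 21.8, and these neighbours did not overlap. Ptch1, at 13.1, overlapped Boc and Gli2. At P14 Gli3 led with 101, above Smo with 61.8, and Smo, Ptch1 (52.4) and Gas1 (43.03) each overlapped the next, the last of these being Gli2 (31.0). In hippocampus the co-receptors Cdon and Gas1 led at P1 with 75.4 and 75.3, and overlapped each other and, for Gas1, Gli3 with 52.3. By P14 Smo with 109 and Gli3 with 94.8 led, overlapping each other, and Cdon with 1.86 stood next to last beside Gli1 with 1.196. In olfactory bulb Gas1 with 50.7 and Cdon with 50.04 led at P1, and Smo with 65.1 led at P14, above Ptch1 with 43.2. Gli1 held the lowest mean at each age in the 3 regions, between 0.092 and 3.45, and overlapped its neighbour in 6 of the 9 groups.

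The age patterns of the members were compared over the 28 developmental libraries after each table's mean was subtracted. Libraries of one age share that age, so these correlations describe likeness and carry no test. Gli2 and Gli3 had a Pearson r of 0.81, Ptch1 and Gli2 0.80, Ptch1 and Smo 0.75, and Ptch1 and Gli3 0.66. Cdon ran the other way, with r of -0.85 to Ptch1 and -0.81 to Gli2. Boc and Gas1 had an r of 0.72, and Hhip had no r above 0.31 with another member. Among 10418 genes tested in the 3 developmental tables, the gene most like Ptch1 was Gja1, the astrocyte gap junction protein connexin 43, with r of 0.974, followed by Gpam and Slc13a3. The genes most like Smo were Rac1, Gng5 and Slc25a5, with r from 0.932 to 0.953. Those most like Gli2 were Ndp (0.921), Id4 (0.912) and Mcur1 (0.904), and those most like Gli3 were Lrp4 (0.896), Sorl1 (0.887) and Acsl3 (0.874). For Cdon they were Syne2 (0.973), Ccser1 (0.960) and Usp3 (0.952). For Gli1 they were Tgds (0.910), Zfp551 (0.893) and Nrg1 (0.883). The other members had lower r: Ncstn, Ggta1 and Adamts6 for Boc (0.801 to 0.840), Tab2, Tmem177 and Ppp1r15b for Gas1 (0.761 to 0.818), and Tmem41b, Cdc27 and Zfp51 for Hhip (0.647 to 0.690). With Spearman's rho, 13 of these 27 genes were again among the 3 most like their member.

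Over development the hedgehog ligands were at or near 0 in these cells. Shh had at most 3 reads in any developmental library and 0 in all P14 libraries, where a count of 0 allows up to 3 reads. Ihh had 1 read in 1 olfactory bulb P1 library and otherwise 0 over development. Dhh had up to 11 reads at P1, in cortex, and 0 in all P14 libraries.

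Of the other hedgehog genes, a list of 61 symbols for ligand release, uptake, transduction, the cilium and targets known from other tissues, 48 were tested in each developmental table. From P1 to P14, 8 rose and 25 fell in cortex, 6 rose and 13 fell in hippocampus, and 7 rose and 16 fell in olfactory bulb. Of all tested genes, 24.0%, 21.0% and 24.8% rose and 40.3%, 28.5% and 31.4% fell, with the regions in that order. The list medians were -0.58, -0.34 and -0.42 on the log2 scale, beside -0.27, -0.29 and -0.24 for all tested genes. Whether the list moved differently from all genes was not tested. In cortex the split was 11 higher and 18 lower under TMM scaling, which moved the median gene from -0.27 to 0.00. The largest rise in every region was Gpc5, a cell-surface glypican. Its values went from between 63.9 and 79.3 to between 1209 and 1469 in cortex, from between 5.35 and 11.1 to between 1221 and 1637 in hippocampus, and from between 30.5 and 56.3 to between 1019 and 1443 in olfactory bulb. The Gpc5 log2 changes were 4.19, 7.49 and 4.80.

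Among transduction and cilium genes, Arrb1, a beta-arrestin, rose by 1.61 in cortex and 1.49 in hippocampus. Evc2, a ciliary partner of Smo, rose by 1.30 in cortex, Ift27, a ciliary transport protein, by 1.10 in cortex, and Tulp3, a ciliary trafficking adaptor, by 1.00 in hippocampus. Ift27 in hippocampus, 1.17, was past the threshold in only 6 of 14 alternatives and was lost without any one P1 library, without P14 replicate 1 or 3, with a pseudocount of 0.1, without the filter and with 2 ages only, with adjusted p up to 0.14. Gpr161, a ciliary receptor that holds the pathway off, fell by 2.58 in cortex and 2.69 in olfactory bulb. Ift88, needed to build the cilium, fell by 2.56 in hippocampus. Efcab7, which anchors the Evc complex, was lower by -2.43 in olfactory bulb, a call kept in 5 of 14 alternatives, with losses without any one P1 library or P14 replicate 3, and also with edgeR, quantile normalization, a pseudocount of 0.1, no filter or 2 ages only. Of the ligand release genes, Scube1 fell by 2.64 in cortex, and Scube3 in olfactory bulb went from between 16.0 and 21.1 to 0 in all P14 libraries, at least 4.01-fold lower against 3 reads per library.

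Genes known as hedgehog targets in other tissues went both ways. Mycn, a proliferation factor, fell by 3.40 in cortex, by 5.52 in hippocampus and by 3.40 in olfactory bulb. Foxm1, a cell cycle factor, fell by 2.42 in cortex, and in hippocampus by 3.08, a call lost without P1 replicate 2 and with a pseudocount of 0.1 (limma adjusted p up to 0.0551). Cxcr4, a chemokine receptor, fell by 5.56 in hippocampus. In olfactory bulb Nkx2-2, a factor of the oligodendrocyte lineage, rose by 3.11, Igf1 by 2.39 and Bcl2, a survival factor, by 1.58. Some of these sizes rest on values near 0. In hippocampus at P14 Cxcr4 held 0 to 7.17 and Mycn 1.10 to 8.96, and in olfactory bulb at P1 Nkx2-2 held 0.717 to 3.52. Over the alternatives the Cxcr4 change ran from -6.87 to -3.77, that Mycn change from -5.96 to -4.28 and the Nkx2-2 change from 1.66 to 3.71.

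Markers of other cells moved with age as well. The summed level of 10 astrocyte markers rose from between 21366 and 28242 at P1 to between 496464 and 554981 at P14 in cortex, from between 13833 and 15917 to between 427309 and 461104 in hippocampus, and from between 5043 and 7167 to between 124253 and 141312 in olfactory bulb. All 10 astrocyte markers were read in each group, which does not show how pure the libraries were. The summed level of 11 neuron markers went from between 7586 and 10760 to between 287 and 546 in cortex, from between 6483 and 8464 to between 445 and 635 in hippocampus, and from between 15168 and 18567 to between 2016 and 3188 in olfactory bulb. In olfactory bulb this neuron sum lay above the astrocyte sum at P1. At P7 the sums overlapped there, with 9676 to 15037 for neurons and 10605 to 19406 for astrocytes. How much of the olfactory bulb RNA came from neurons was not tested. Of the neuron markers 9, 9 and 8 of 11 tested fell in the 3 regions, and 1 rose in olfactory bulb. Of 8 markers of progenitors and dividing cells, 6 fell in cortex, another 6 in hippocampus, and 3 in olfactory bulb. Beside these counts, 40.3%, 28.5% and 31.4% of all tested genes fell in the same regions. In olfactory bulb the summed level of this list did not fall, at 2067 to 2443 at P1 and 2158 to 3104 at P14. The summed level of 6 mature oligodendrocyte markers went from between 90.2 and 95.5 to between 14125 and 24850 in cortex, from between 44.5 and 59.6 to between 1025 and 1700.2 in hippocampus, and from between 79.4 and 157.4 to between 1602 and 1860.5 in olfactory bulb. Ependyma and choroid plexus markers were at 40.1 to 79.1 in hippocampus at P1 and 3932 to 7980 at P14. In olfactory bulb, where Nkx2-2 and Igf1 rose, 6 markers of oligodendrocyte precursors went from between 131 and 168 to between 1176 and 1227, 6 of microglia from between 16.0 and 25.1 to between 189 and 325, and 6 of endothelial and mural cells from between 40.2 and 82.2 to between 298 and 1469. Microglia markers also went from between 232 and 385 to between 970.0 and 2075 in cortex and from between 51.6 and 71.9 to between 188 and 475 in hippocampus, and oligodendrocyte precursor markers in hippocampus from between 363 and 564 to between 926 and 1035. The part of these cells in the members' changes was not tested, and in bulk libraries fewer cells of a type and less RNA per cell cannot be told apart.

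At P28 the targeted gene was checked first. Gabbr1 in cortex was 1745.5, 1930.1, 1159 and 927 in controls and 89.8, 96.5, 134 and 211 in cKO. In hippocampus it was 779.8 and 824 in controls and 167, 379.9, 151.7 and 256 in cKO, and in olfactory bulb 318, 184 and 189 in controls and 63.6, 99.5 and 78.2 in cKO. All cKO libraries were thus under all controls from the same region. The log2 difference, cKO minus control, was -3.45 in cortex (limma adjusted p = 4.40e-05), -1.84 in hippocampus (limma adjusted p = 0.936) and -1.48 in olfactory bulb (limma adjusted p = 0.877), so limma called it in cortex alone. DESeq2 on the recovered reads gave adjusted p of 0.118 in hippocampus and 0.0272 in olfactory bulb.

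No member passed the test between cKO and control in any region. The background was as low: 0.00982% of tested cortex genes, Gabbr1 alone, were called, and 0.0% of those in either hippocampus or olfactory bulb. Neither edgeR nor DESeq2 on recovered reads called a member in any region. At an unadjusted limma p under 0.05, 0 of 9 cortex members passed, 2 hippocampus members and 0 olfactory bulb members, beside 2.17%, 2.54% and 3.02% of all tested genes. Of the other hedgehog genes, 0 of 42, 0 of 46 and 0 of 46 tested were called, and 1, 0 and 0 had an unadjusted limma p under 0.05. Cells were again rich in astrocyte markers, and hippocampus libraries also held ependyma and choroid plexus markers at a summed level of 65161 to 135083 in controls and 10492 to 124697 in cKO, whose part in the values was not tested.

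**Figure D4:**
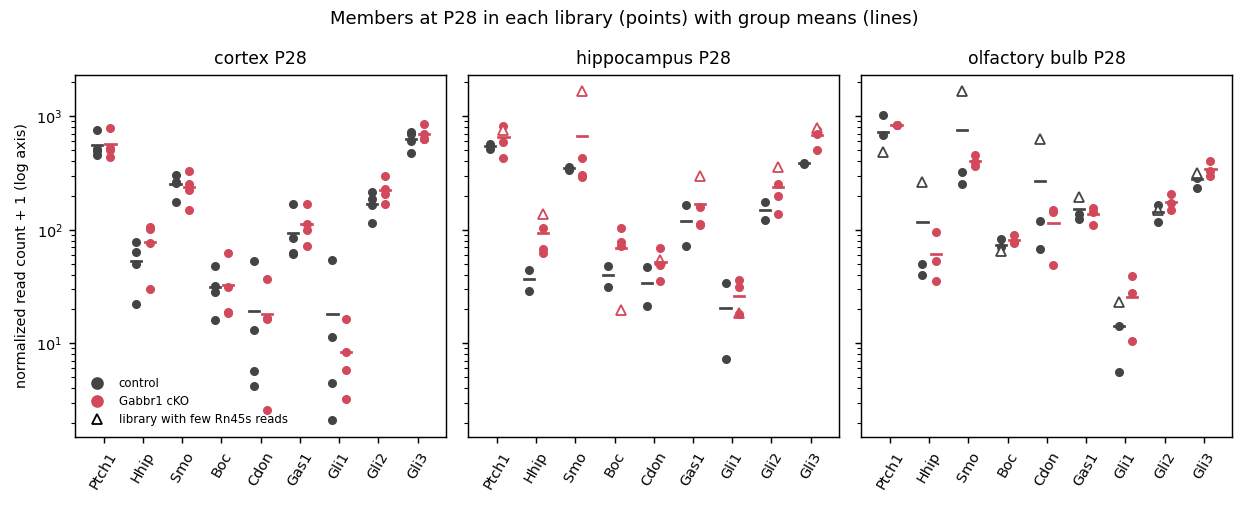
Normalized read count plus 1 (log axis) of each member at P28 in Gabbr1 control (dark) and cKO (red) libraries; points are libraries, short lines are group means, and open triangles mark the library in hippocampus and the library in olfactory bulb with few Rn45s reads. Controls and cKO overlap for every member except Gli3 and Hhip in hippocampus, and the open triangles carry the high Smo values of 1658 and 1668.

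In cortex, Ptch1 was 517, 757, 493 and 451 in controls and 788, 507, 523 and 439 in cKO. Smo was 262, 304, 259.8 and 175 in controls and 325, 252, 221 and 147.8 in cKO. Gli2 was 163, 185, 114 and 215 against 206, 167, 299 and 229, and Gli3 was 475.5, 699, 607 and 722 against 629, 627, 853 and 689.8. All of these groups overlapped. The log2 difference was 0.02 for Ptch1, -0.11 for Smo, 0.42 for Gli2 and 0.17 for Gli3, with 95% intervals of -0.46 to 0.50, -0.66 to 0.45, -0.12 to 0.96 and -0.24 to 0.58. The intervals leave room for differences up to these bounds. Gli1 and Cdon had few reads, 1 to 50 and 2 to 76 per library, and their intervals ran from -2.60 to 2.01 and from -1.88 to 2.21. Hhip, Boc and Gas1 differed by 0.54, -0.01 and 0.32. The cortex labels come in 2 formats, without and with tamoxifen stated, taken here as 2 rounds of deposit, with 2 control and 3 cKO libraries in the first and 2 control and 1 cKO in the second. Within the first round the differences were -0.08 for Ptch1, 0.33 for Gli2 and 0.27 for Gli3, and within the second -0.10, 0.55 and 0.06. Gli1, Cdon and Gas1 had opposite signs in the rounds, -1.53 and 1.74, 1.27 and -0.69, and 0.77 and -0.09.

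In hippocampus all 9 members had a positive log2 difference, with a median of 0.61 beside -0.04 for all tested genes. The differences share the same 2 control libraries, so their signs are not independent. Some signs rested on 1 library: Smo was -0.05 without cKO replicate 2, and without control replicate 1 Gli1 was -0.46 and Gas1 -0.08. Some summed markers of other cells were also higher in cKO there without overlap. Endothelial and mural cells were at 343 to 572 against 160 to 294 in controls, and microglia at 59.1 to 527 against 45.4 to 52.4. Progenitors and dividing cells were at 1549 to 3186 against 875 to 1499. The sums for neurons, mature oligodendrocytes, oligodendrocyte precursors, meningeal fibroblasts, and ependyma and choroid plexus overlapped. Of these, the precursor, fibroblast, and ependyma and choroid plexus sums had lower medians in cKO. With 2 controls, 15.0% of all tested genes also did not overlap. The part of these cells in the members' values was not tested. Gli3 was 387 and 383 in controls and 759, 786, 689.8 and 507 in cKO. Hhip was 28.2 and 43.6 in controls and 66.8, 137, 102.2 and 60.8 in cKO. These were the members whose groups did not overlap, 2 of 9, where 15.0% of all tested genes did not. In cortex and olfactory bulb 0 of 9 members had groups that did not overlap, where 1.89% and 10% of all tested genes did not. The Gli3 difference was 0.81 ± 0.28 and the Hhip difference 1.29 ± 0.48, each with a limma adjusted p of 0.936 and an exact two-sided permutation p of 0.133, the smallest that 4 against 2 libraries can give. Without cKO replicate 2, the library poor in Rn45s, they were 0.74 and 1.07.

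Smo in hippocampus was 338 and 356 in controls and 429.9, 1658, 304 and 288 in cKO. The value of 1658 belonged to cKO replicate 2 and was 4.9 times the median of the other libraries, a ratio that 3.09% of the 11639 tested genes reached there. The log2 difference of 0.53 became -0.05 without it. Boc was lowest in that library, 18.8 against 71.6, 77.5 and 103 in the other cKO libraries and 46.9 and 30.3 in controls, and its difference went from 0.60 to 1.12 without it. In that fit limma gave an unadjusted p of 0.0126 and an adjusted p of 0.835. Ptch1 was 517 and 565 in controls and 823, 755, 588 and 431 in cKO, and Gli2 was 121 and 174 against 138, 358, 252 and 197. Their differences were 0.22 and 0.61, with 95% intervals of -0.49 to 0.93 and -0.31 to 1.53. Gli1, Cdon and Gas1 differed by 0.65, 0.66 and 0.51 and overlapped.

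In olfactory bulb, Smo was 254, 1668 and 323 in controls and 362, 459 and 396 in cKO. Control replicate 2, the other library poor in Rn45s, also held the highest Cdon (628 against 66.6 and 117 in the other controls) and the highest Hhip (262 against 39.04 and 49.2). Its Smo, Hhip and Cdon stood 4.6, 5.24 and 5.32 times above the median of the other libraries, ratios reached by 5.61%, 4.76% and 4.67% of the 11539 tested genes. With this library the differences of Smo, Hhip and Cdon were -0.35, -0.52 and -0.75, and without it they were 0.50, 0.33 and 0.19. Smo without it had an unadjusted limma p of 0.0321 and an adjusted p of 0.986. Ptch1 was 1021, 480.0 and 681 in controls and 838, 835 and 829 in cKO. Gli3 was 285, 315 and 231 in controls and 402, 331 and 299 in cKO. Gli2 was 165, 148.1 and 116 against 172, 149.3 and 204, and all of these overlapped. The Ptch1, Gli3 and Gli2 differences were 0.27, 0.31 and 0.29, with 95% intervals of -0.34 to 0.87, -0.24 to 0.86 and -0.34 to 0.92. Gli1 was read in every P28 olfactory bulb library, with 4, 13 and 14 reads in controls and 31, 38 and 13 in cKO. Boc and Gas1 differed by 0.16 and -0.15. The ligands remained near 0 at P28: Shh had at most 4 reads, Ihh at most 1, and Dhh at most 21, the last in an olfactory bulb cKO library.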

How the data were processed

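The submitters' processing notes name STAR 2.5.0a, DESeq2 1.20.0 and the build mm10, without roles; the counter, annotation and strand setting are not given in the sources used here. Low-input libraries were made from total RNA of dissociated tissue, per the labels' protocols. The deposited values are a normalized signal, 6 tables of 24421 symbols over 48 libraries in 15 groups. Each value was a whole multiple, within 0.01 reads, of 1 step per library, which gave back whole reads; 100% of values came out whole, though 1 library, olfactory bulb P28 cKO replicate 2, has a step of 0.995, so near 1 that the tolerance tells little.

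Genes with a table mean of at least 10 were tested as log2(value + 1) with limma 3.58.1 (trend, R 4.3.3), the 3 ages of a region in 1 fit; fold changes on this scale understate low genes. Between 10188 and 11822 genes were tested per table. The members, the list of other hedgehog genes and the markers were chosen with earlier results of these data known. Named beside the 9 members are the 3 genes most like each, the ligands, and up to 4 largest rises and falls of the other list per region from P1 to P14. The results were recomputed with pseudocounts of 0.1 and 8, without the filter, with a stricter mean of 100, with TMM or quantile scaling, with edgeR 4.0.16 and DESeq2 1.42.0 on recovered reads, 2 ages only, the deposit round as covariate, and leaving out each library. Per-length levels use GENCODE exon lengths on GRCm38. All 9 symbols matched GENCODE.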

Additional observations from a re-analysis of the deposited data

Results flagged for a closer look

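In hippocampus at P28, 1 of the 4 cKO libraries, replicate 2, held a Smo value of 1658, far from the other 3, which lay between 288 and 429.9. It was the 1 such library among 36 sets of 4 libraries looked at (the 9 members in each of the 4 groups with 4 libraries), and chance alone marks about 1 set in 20. The same library held 0.594% of its reads on Rn45s, and the part of this in the Smo value was not tested. Gas1 moved in opposite directions in different regions. From P1 to P7 it rose by 0.71 (log2) in cortex and was changed by -0.96 in olfactory bulb, and from P1 to P14 it rose by 0.57 in cortex and was changed by -1.45 in hippocampus. The difference between regions was not tested, because the tables were scaled separately.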

How the results depend on the processing

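Of the 41 calls of members, 28 stayed past the threshold under every alternative run, and of 51 sign changes none touched a called member; 36 of them came from leaving out 1 library. The number of members changed was 3 in cortex from P7 to P14 with a minimum mean of 100, and 1 in olfactory bulb from P1 to P7 without the filter. In that cortex fit Cdon and Hhip, with table means of 79.2 and 56.0, were not tested. Their falls from P7 to P14 passed in all 15 alternatives that tested them. Leaving out single libraries gave 4 to 5, 3 to 5 and 4 to 6 changed members in cortex (P7 against P1, P14 against P7, P14 against P1), 2, 4 to 8 and 7 to 8 in hippocampus, 0 to 2, 4 to 5 and 4 to 5 in olfactory bulb, and 0 in every P28 comparison. Calls lost under other alternatives were Ptch1 in cortex from P7 to P14 (0.19), Ptch1 (0.37) and Gli3 (0.45) in hippocampus from P7 to P14 under quantile normalization, Gli2 there with 2 ages only, and Gas1 in olfactory bulb from P1 to P7 without the filter. Calls gained numbered 8 when a library was left out and 18 under other alternatives, among them Hhip in cortex from P1 to P14 (0.63) and Boc there from P1 to P7 (0.58) under quantile normalization. With Spearman's rho 13 of 27 likeness genes were shared, and with 1 mismatch the motif share was 6.74%.

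Values that changed sign were, for Gas1 in cortex from P7 to P14, 0.053 under TMM and 0.0066 under quantile normalization. Boc in cortex from P1 to P14 gave 0.28 and 0.35 under the same scalings. Under quantile normalization Hhip in hippocampus from P1 to P7 was -0.066, Gli3 in olfactory bulb from P1 to P14 was -0.020, and Cdon in cortex P28 was -0.12. In cortex P28 Boc was 0.0041 with a pseudocount of 8, 0.00056 under TMM, and 0.071 with edgeR and 0.071 with DESeq2, where Cdon was -0.12 and -0.11. With the deposit round as covariate Boc was 0.28 and Ptch1 -0.085. Leaving out 1 library moved uncalled values across 0. In cortex from P7 to P14 Smo ran from -0.053 to 0.27 and Gas1 from -0.32 to 0.092, and from P1 to P14 Boc ran from -0.10 to 0.17. In hippocampus from P1 to P7 Gli1 ran from -0.40 to 0.15, Gli3 from -0.072 to 0.27 and Hhip from -0.27 to 0.16. In olfactory bulb Smo ran from -0.044 to 0.22 (P1 to P7), Boc from -0.15 to 0.28 (P7 to P14), and Gli3 from -0.14 to 0.24 and Hhip from -0.62 to 0.17 (P1 to P14). In cortex P28 Ptch1 ran from -0.15 to 0.18, Smo from -0.28 to 0.10, Gli1 from -0.98 to 0.58, Boc from -0.38 to 0.24 and Cdon from -0.35 to 0.93. In hippocampus P28 Smo ran from -0.049 to 0.79, Gli1 from -0.46 to 1.76 and Gas1 from -0.083 to 1.11. In olfactory bulb P28 Smo ran from -0.86 to 0.50, Hhip from -1.03 to 0.33, Cdon from -1.42 to 0.19 and Gas1 from -0.28 to 0.039. The cause of these moves was not tested.

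Over all genes, a minimum mean of 100, which tests fewer genes, lowered the calls from 5893 to 3295 and from 7608 to 3986 in cortex (P14 against P7 and against P1), from 3489 to 2067 and from 5732 to 3256 in hippocampus, and from 5396 to 3007 and from 6449 to 3413 in olfactory bulb. From P1 to P7, fitting 2 ages only gave 4312 in place of 2092 in hippocampus and 3565 in place of 1214 in olfactory bulb, where DESeq2 gave 2283 and leaving out 1 library 517 to 1396. At P28 DESeq2 called 1 gene in hippocampus and 22 in olfactory bulb, none of them a member. The share of higher calls over all genes in cortex went from 46.4% to 56.5% (P7 against P1), from 37.3% to 52.7% (P14 against P7) and from 37.4% to 51% (P14 against P1) under TMM. Among other hedgehog genes in cortex from P1 to P14 it went from 24.2% to 37.9%. Among members it went from 57.1% to 40.0% in hippocampus from P7 to P14 under quantile normalization. Depth limits what can be said of Gli1 and the ligands, which had few or no reads. No paired analysis was possible because the labels give no replicate numbers that tie libraries of different groups together.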
